A study of Oncorhynchus mykiss with 525 samples.

Results

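In RTgill-W1, a line of epithelial cells grown from the gill of a rainbow trout, 100 genes were picked that stood higher than in solvent wells under each of 3 pesticides coded dip, met and col at the highest concentration of each. They are part of the 44260 gene IDs in the count tables, and of 5223 IDs that had 20 to 1000 CPM (counts scaled to the same total in every group) in both groups of solvent wells. The members were selected on measured values. For each chemical, counts were summed over the wells of the highest concentration and over the solvent wells of the same batch, turned into CPM, and compared as log2((CPM + 5)/(solvent CPM + 5)); the 100 IDs with the largest minimum of that value over dip, met and col were taken. Those values are therefore given below as a description, without a test.

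The groups used are wells of dip, met and col at 8 concentrations in 3-fold steps, which the labels number from conc 8, the lowest, to conc 1, the highest, then wells of 15 further pesticides with the same steps and of dca, a further chemical, at 5 concentrations 2-fold apart, and last the solvent wells, which hold the cells and DMSO without a pesticide. Exposure lasted 24 h in 96-well plates, with 3 replicate wells per concentration (6 for dca), each from another cell passage on another plate, and 24 wells were pooled into each sequencing library. Plates P1 to P3 form the first batch, with met, col and 24 solvent wells, and plates P4 to P6 the second, with dip and 15 solvent wells; the labels give library and replicate numbers, from which the plates were inferred and named here, and all wells hold the same cell line. The design text gives the aim of deriving the concentrations at which expression starts to change; the labels give no unit for a concentration, and the chemicals are known here by code only. Counts were available for 501 wells with totals of 1809 to 786151 counts. Of these, 14 wells under 10% of the median total were left out by the rule, among them col replicate 2 at conc 1 to 4, so the rule saw 2 col wells.

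Gill epithelium is the first tissue of a fish that a dissolved chemical meets, and RTgill-W1 is used as a stand-in for whole fish in tests of acute toxicity. Cells that are exposed to unrelated toxicants at damaging concentrations commonly raise an overlapping set of genes for protein folding, antioxidant defence and early signalling. Salmonid genomes also carry many recent gene duplicates, whose reads are hard to tell apart. None of the 44260 IDs matched a name in the reference table used here, so no member could be placed in such a set, and neither marker genes of gill epithelium nor pathway lists could be checked. The members are described by their levels, and 2 of them by their IDs.

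At conc 1, where they were chosen, the members stood a median of 1.53 above solvent on the log2(CPM + 5) scale in dip, 1.70 in met and 1.67 in col. Over the 5223 eligible IDs the medians were 0.06 for dip, -0.33 for met and -0.80 for col. The values of single members ran between 1.08 and 3.85 in dip, 1.09 and 3.12 in met, and 1.08 and 3.13 in col. The smallest of the 3 values was that of col for 45 members, dip for 35 and met for 20, so no single chemical set the choice. The 3 values of a member differed by a median of 0.61, by 0.5 or less for 40 members and by more than 1 for 16. The last 5 members inside the rule had minima of 1.08 to 1.09 and the first 5 IDs outside it had 1.06 to 1.08, so the list has no natural edge. The rule leaves a gradient of which the 100 are the upper end, since 986 of the 5223 IDs had a minimum above 0.

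In solvent wells the members were mostly of modest abundance, with a median of 47.8 CPM in the first batch and 42.3 CPM in the second. Of the 100, 51 lay under 50 CPM in both batches and 10 at 200 CPM or more in both. A member's SD over solvent wells, on the log2(CPM + 5) scale, had a median of 1.17 in the first batch and 0.74 in the second. The medians over all eligible IDs, which had similar levels, were 1.18 and 0.65. In the first batch the mean count per solvent well was under 5 for 43 members, which limits what can be said of any single one.

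Summed over all 100, the members took a larger share of a well's counts at the top of the range. Shares are given in percent of the counts of a well after removal of the 4 most counted IDs, which hold 46.3% of all counts. The dip wells at conc 1 had shares of 2.62%, 2.99% and 3.20%, and the met wells at conc 1 had 4.10%, 2.76% and 3.87%. The col wells at conc 1 had 3.74% and 2.75%. The solvent wells had 0.792% to 0.946% (median 0.861%, n = 15) in the batch of dip and 0.720% to 1.38% (median 0.894%, n = 24) in the batch of met and col. No well at conc 1 of dip, met or col overlapped with solvent, which follows from how the members were chosen. The 10 most counted members held 46.1% of the members' counts in dip wells at conc 1, 48.7% in met wells and 49.2% in col wells, against 46.5% and 46.1% in the solvent wells of the first and second batch.

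**Figure D1:**
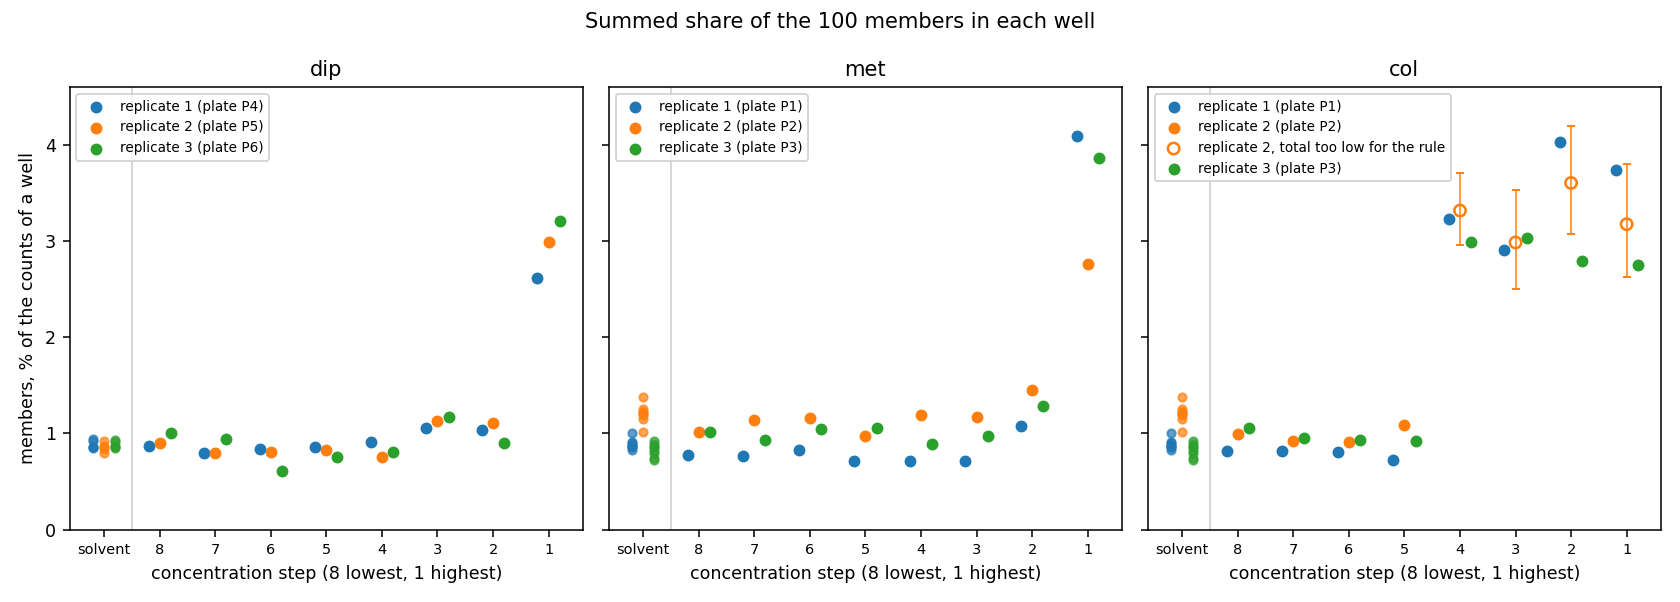
Share of a well's counts taken by the 100 members (y axis, percent of counts without the 4 most counted IDs) by concentration step (x axis, solvent at the left, then lowest to highest); each point is a well, coloured by replicate, and open points with bars are wells with too low a total for the rule, with exact 95% binomial intervals. The shares of met overlap with solvent up to conc 2. Those of dip at conc 3 lie just above solvent at 1.06% to 1.17%, and at conc 2 they overlap with it, with a well at 0.901%. Both chemicals stand higher at conc 1, while the shares of col stand at 2.75% or more from conc 4 upwards, the open points included.

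The concentrations below conc 1 were not used by the rule, and there the 3 chemicals differed. In col the members stood above their level at conc 5 at each of conc 2, 3 and 4. The col wells had shares of 3.23% and 2.99% at conc 4, of 2.90% and 3.03% at conc 3, and of 4.03% and 2.79% at conc 2. At conc 5 the 3 col wells had 0.721%, 1.09% and 0.923%, and at conc 6 to 8 the 9 wells had 0.801% to 1.05%. The ranges at conc 2 to 4 overlapped with each other and not with those at conc 5 or below.

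In dip and met the summed share at conc 2 and 3 was at most 1.46%. The dip wells had 1.06%, 1.13% and 1.17% at conc 3 and 1.03%, 1.10% and 0.901% at conc 2, against 0.608% to 1.01% at conc 6 to 8 (n = 9). The range at conc 3 did not overlap with conc 6 to 8 or with solvent, where the highest well of the batch had 0.946%, and that at conc 2 overlapped with both. On each of the 3 plates by itself the dip well at conc 3 lay above the plate's own wells at conc 6 to 8, and the well at conc 2 did so on P4 and P5. The met wells had 1.08%, 1.46% and 1.28% at conc 2, against 0.761% to 1.16% at conc 6 to 8 (n = 9), and these ranges overlapped as well. On each plate by itself the met well at conc 2 lay above the plate's own wells at conc 6 to 8, namely 1.08% against at most 0.826% on P1, 1.46% against at most 1.16% on P2, and 1.28% against at most 1.05% on P3. The concentrations were 18.8 for met and 19.2 for dip at conc 2, 6.27 and 6.40 at conc 3, and 0.148 for col at conc 4 and 0.0493 at conc 5, in the unstated unit of the labels.

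Tests were made with edgeR's quasi-likelihood method within each chemical, comparing conc 2, 3 or 4 with the mean of conc 6 to 8, without conc 1 and without solvent wells, at a Benjamini-Hochberg adjusted p (false discovery rate) below 0.05 over all IDs tested. In col, 31 members rose at conc 4, 31 at conc 3 and 28 at conc 2, of 37 that passed the filter on low counts, and 0 fell. Among all 1598 IDs that passed the same filter, 15.8% were called raised at conc 4, 16.2% at conc 3 and 12.3% at conc 2, and 16.3%, 20.3% and 20.8% were called lowered. Without that filter, 11, 10 and 9 of the 100 were called raised. The share over all IDs is not given for the fit without a filter, and the percentages above do not apply to it. The filter can pass a gene through the group where it is high, so the members that passed are not a fair sample of the 100. With a filter on the mean count over all wells of col, chosen after the data were seen, 98 members were tested: 39 rose at conc 4, 26 at conc 3 and 25 at conc 2, and 0 fell. Of the 5740 IDs tested with that filter, 4.51%, 4.18% and 3.00% were called raised. In total 22 members were called at each of conc 2, 3 and 4 in the first fit, with log2 fold changes of called members between 1.40 and 4.90, and 15 in the second. The share of all IDs called at all 3 steps is not given here. Without replicate 1 or without replicate 3, 1 col well is left at each of these steps, and its spread is taken to be that of the other groups. Fewer members were called in those fits, and no conclusion is drawn from their counts.

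All 100 members can be followed without a filter as log2 differences to the chemical's own conc 6 to 8, from summed counts with 5 CPM added. In col the median of the 100 was 1.31 at conc 4, 1.22 at conc 3 and 1.14 at conc 2, while that of the 5223 eligible IDs was -0.58, -0.74 and -0.93. At conc 4, 95 members were above 0 and 71 at least 2-fold higher, against 34.6% and 13.1% of the eligible IDs. At conc 3 the counts were 87 and 60, against 31.5% and 12.5%, and at conc 2 they were 87 and 61, against 30.2% and 12.4%. The median of the members at conc 5 was -0.12. On plate P1 the median was 1.33, 1.40 and 1.45 at conc 4, 3 and 2, and on plate P3 it was 1.12, 0.94 and 1.03, so the rise was seen on both plates. The size depends on the total used: with the 4 most counted IDs kept in it, the medians were 0.70, 0.65 and 0.52 at conc 4, 3 and 2.

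The values of single members in col varied widely, and many rest on few counts. At conc 2, 3 and 4 alike, 32 members were at least 2-fold higher and 70 were above 0, against 4.77% and 14.7% of the eligible IDs. Another 8 members stayed under 2-fold at all 3, and 1 was below 0 at 2 or more of them. Single values ran between -3.26 and 4.20. Across the 100 members, the log2 difference at conc 2 correlated with that at conc 4 by a Pearson r of 0.38; the points share the wells at conc 6 to 8 and the libraries. How much of this spread is counting error was not tested.

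**Figure D2:**
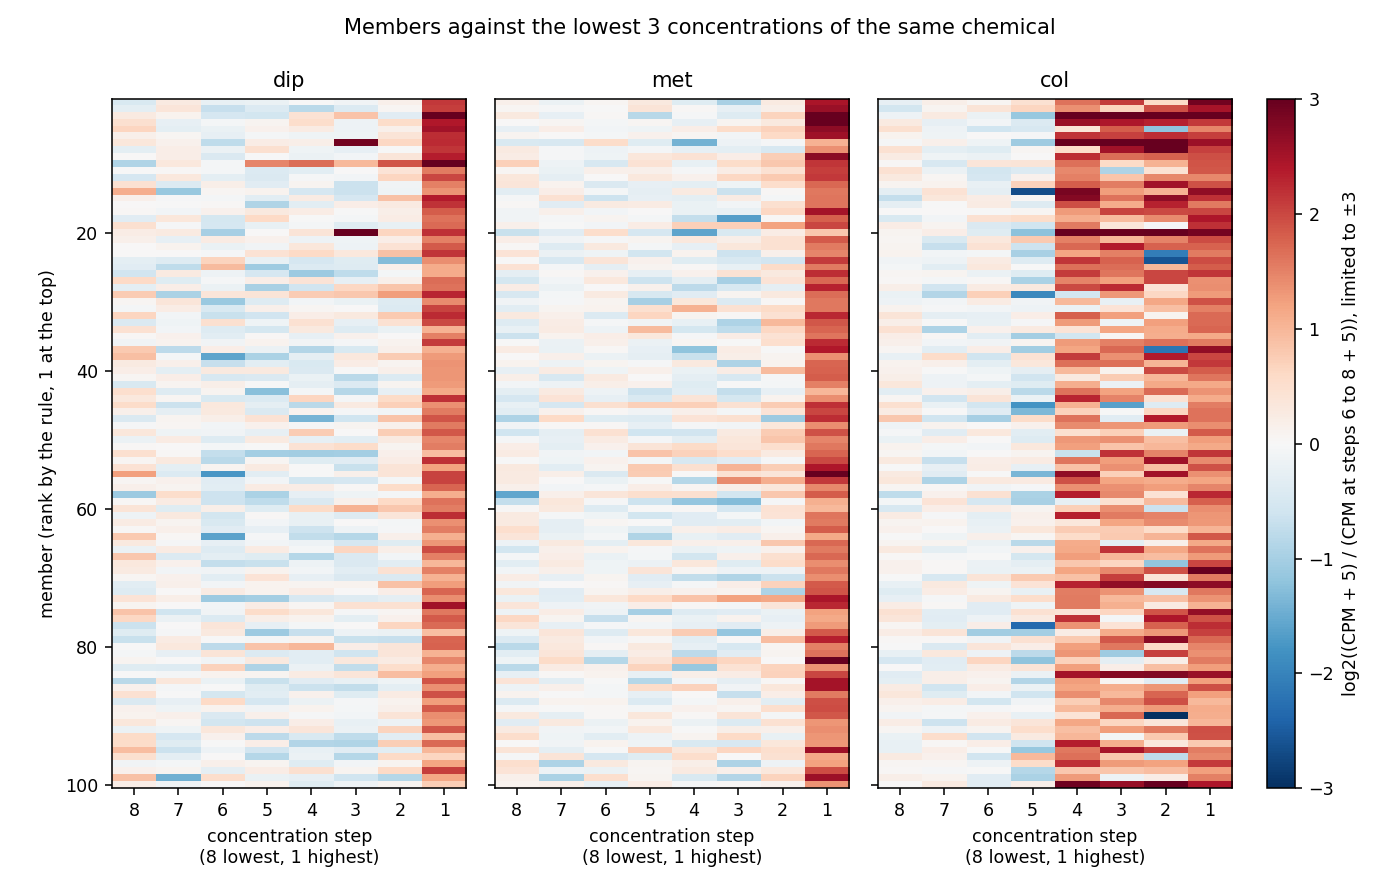
Log2 differences of each member (rows, in the order of the rule) to the mean level at conc 6 to 8 of the same chemical, by concentration step (columns, lowest to highest), for dip, met and col, with 5 CPM added and colours limited at 3. The column of conc 1 is red throughout because the members were chosen there; in col the red extends to conc 4, with 95 members above 0, and in dip at conc 3 the 2 dark rows are a pair of IDs whose counts vary together.

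In dip, 0 members were called raised at conc 4, 2 at conc 3 and 0 at conc 2, of 61 tested; 0.140%, 0.224% and 0.224% of all 3564 IDs tested were called raised. At an unadjusted p below 0.05, 6 of the 61 members tested (9.84%) were higher at conc 2 and 0 lower, against 3.73% and 1.57% of all IDs tested. With the plate as a replicate block, 2 members were called raised at conc 2 (0.421% of all IDs tested), with log2 fold changes of 0.89 and 0.90. Over all 100 members the median log2 difference was -0.11 at conc 4 and -0.14 at conc 3, with 36 and 32 members above 0 against 51.8% and 50.2% of the eligible IDs, and 0.16 at conc 2, with 70 members above 0 against 49.4% of the eligible IDs. By plate, the median at conc 2 was 0.19 on P4, 0.18 on P5 and 0.05 on P6.

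In met, 0 members were called raised at conc 4, 3 or 2, of 68 tested; 0.0297%, 0% and 0.178% of all 3364 IDs tested were called. DESeq2 also called 0 members at these steps. At an unadjusted p below 0.05, 12 of the 68 members tested (17.6%) were higher at conc 2 and 1 lower, against 3.86% and 1.96% of all IDs tested. With the replicate block, 5 members were called raised at conc 2 (1.31% of all IDs tested), with log2 fold changes of 0.52 to 0.70. Over all 100 members the median was -0.03 at conc 4 and at conc 3, and 0.34 at conc 2, with 77 members above 0 against 44.0% of the eligible IDs. By plate, the median at conc 2 was 0.38 on P1, 0.29 on P2 and 0.26 on P3. Altogether 41 members were above 0 at conc 2 of dip and of met and at conc 2, 3 and 4 of col, against 4.65% of the eligible IDs; whether the share differs beyond what the choice of members fixes was not tested.

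ENSOMYG00000003664 had the largest minimum of the rule, 2.27. Its level was 209, 247 and 160 CPM in dip wells at conc 1, and 317, 59.4 and 517 CPM in met wells at conc 1. It was 474 and 127 CPM in the 2 col wells at conc 1. Solvent wells had 0 to 75.7 CPM (median 40.2) in the batch of dip and 0 to 102 CPM (median 47.2) in the other, with 4 of 39 wells at a count of 0, where up to 3 counts could have been missed, and a median of 5 counts. The met well of replicate 2 lay within the solvent range and the other 7 wells above it.

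One step lower the level of ENSOMYG00000003664 was 41.0, 80.1 and 9.59 CPM in dip and 80.4, 18.5 and 80.1 CPM in met, within or near the solvent range. The log2 fold change to conc 6 to 8 was 0.20 ± 0.58 (SE) in dip, with an adjusted p of 0.999 by edgeR, and 0.30 ± 0.49 in met, with an adjusted p of 0.987. In col it had 88.4 and 156 CPM at conc 4, 152 and 209 CPM at conc 3, and 38.5 and 83.6 CPM at conc 2. It did not pass the first filter there. With the filter on the mean count the log2 fold change was 1.70 ± 0.71 at conc 4 (edgeR adjusted p = 0.101), 2.13 ± 0.68 at conc 3 (adjusted p = 0.0205) and 0.40 ± 1.04 at conc 2 (adjusted p = 0.824). The calls depend on the setting: without a low-count filter the values were 1.11 at conc 4 (edgeR adjusted p = 0.604) and 1.54 at conc 3 (adjusted p = 0.319), and with the 4 most counted IDs removed they were 2.09 (adjusted p = 0.0416) and 2.71 (adjusted p = 0.0070).

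ENSOMYG00000004269 had the largest mean log2 fold change over conc 2 of dip, met and col among the 36 members tested in all 3, so its values at conc 2 describe how it was picked. It is the 20th member of the rule, and its counts followed those of the member of rank 7 with a Pearson r of 0.986 over the 487 wells, with 19475 and 19690 counts in all. The r is of counts not scaled for the total of a well, so differences in total enter it. The counts of the 2 differed in 92.5% of the wells where either was above 0. No sequence of either was read, and whether the 2 share reads was not tested, so both are uncertain as separate genes. Its level was 552, 1044 and 1647 CPM in dip at conc 1, 811, 297 and 609 CPM in met at conc 1, and 999 and 2974 CPM in col at conc 1. Solvent wells had 50.5 to 563 CPM (median 148) in the batch of dip and 20.3 to 1471 CPM (median 73.5) in the batch of met and col. The high solvent wells were those of plate P2, with a median of 573 CPM, against 69.4 CPM on P1 and 64.3 CPM on P3. With the plates pooled, the levels in met overlap with those of solvent in that batch. By plate, met had 811 CPM on P1 and 609 CPM on P3, where solvent wells had at most 128 and 194 CPM. On P2 the met well, at 297 CPM, lay within the solvent range of 20.3 to 1471 CPM. These wells are those the rule used.

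In col, ENSOMYG00000004269 stayed high over 4 steps. It had 3182 and 1819 CPM at conc 4, 1126 and 2740 CPM at conc 3, and 5273 and 920 CPM at conc 2, against 47.9, 239 and 104 CPM at conc 5. The log2 fold change to conc 6 to 8 was 3.93 ± 0.46 at conc 4 (edgeR adjusted p = 1.23e-06) and 3.69 ± 0.48 at conc 3 (adjusted p = 5.59e-06). At conc 2 it was 4.24 ± 0.47, given without a test. The tests at conc 3 and 4, here and in dip below, share the wells at conc 6 to 8 with the contrasts that picked the ID. Their p-values are therefore not independent of the pick. All 6 col wells at conc 2 to 4 lay above every col well at conc 5 to 8.

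In dip the same ID did not follow the other members. It had 239, 109 and 566 CPM at conc 4, then 1225, 2024 and 2397 CPM at conc 3, and 90.2, 565 and 221 CPM at conc 2. The log2 fold change was 0.56 ± 0.51 at conc 4 (edgeR adjusted p = 0.94), 3.19 ± 0.44 at conc 3 (adjusted p = 2.65e-05) and 0.64 ± 0.54 at conc 2. It and its partner of rank 7, at 2.97 on the log2 scale, were the 2 members called at conc 3 of dip, where the median of all 100 was -0.14. The summed share of dip at conc 3 was 1.06%, 1.13% and 1.17%, above every solvent well of that batch; without the 2 co-varying pairs it was 0.597% to 0.760%, against 0.647% to 0.862% in the solvent wells of that batch, and the ranges overlapped.

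**Figure D3:**
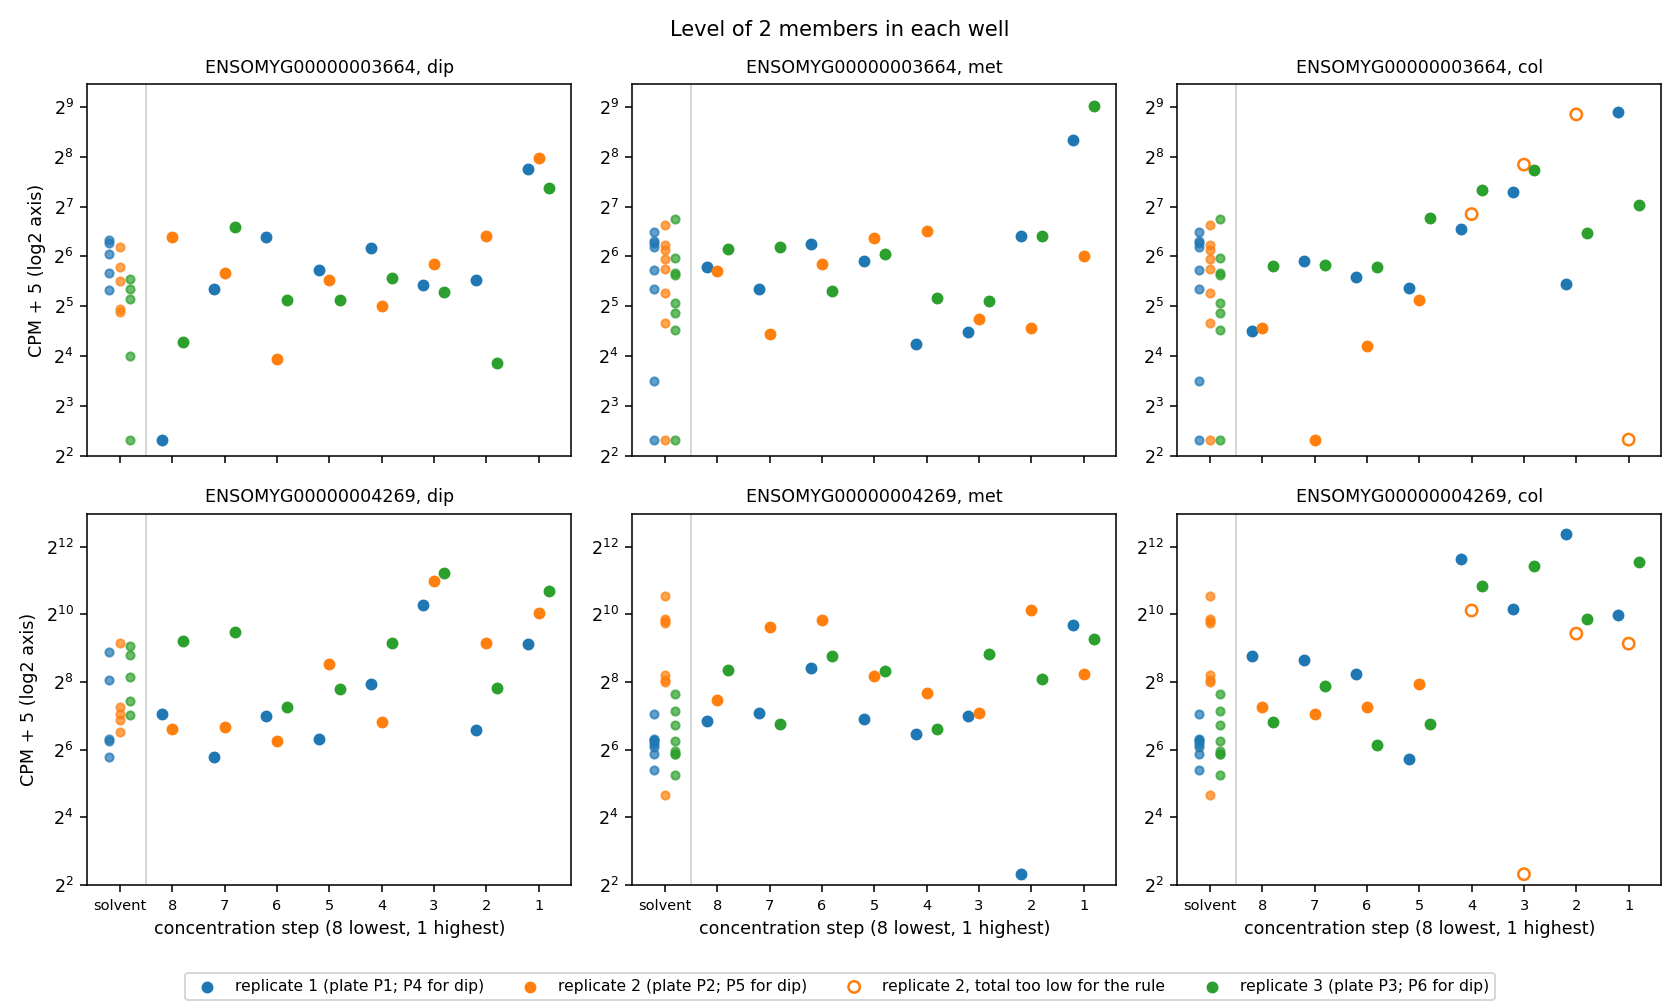
Level of ENSOMYG00000003664 (top) and ENSOMYG00000004269 (bottom) in each well, as CPM + 5 on a log2 axis, by concentration step with solvent at the left; points are wells coloured by replicate and plate, and open points have too low a total for the rule. The lower row shows the rise of dip at conc 3, with 1225 to 2397 CPM, against 90.2 to 565 CPM at conc 2, and the rise of col from conc 4 upwards.

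A second pair that varied together, the members of ranks 71 and 84 (Pearson r = 0.955 over wells, 24448 and 24615 counts), recurred in the fits with the replicate block. This r is also of unscaled counts, and the counts of the 2 differed in 95.5% of the wells where either was above 0. Summed over the pair, dip wells had 517, 1583 and 1007 CPM at conc 2 and 1627, 1018 and 2270 CPM at conc 1, against 355 to 911 CPM at conc 6 to 8. Met wells had 550, 2266 and 828 CPM at conc 2 and 1798, 3177 and 3683 CPM at conc 1, against 279 to 1934 CPM at conc 6 to 8. In col the level was 4184 and 1682 CPM at conc 4, 3775 and 2948 CPM at conc 3, and 3810 and 3095 CPM at conc 2, against 209 to 1510 CPM at conc 6 to 8. The level differed between plates without a pesticide: solvent wells had a median of 2143 CPM on P2, against 390 CPM on P1 and 190 CPM on P3, and 1002 CPM on P6, against 406 CPM on P4 and 542 CPM on P5. The 2 members called in dip at conc 2 with the block were this pair, and 2 of the 5 called in met.

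Solvent wells of plate P2 had member shares of 1.02% to 1.38%, against 0.830% to 0.999% on P1 and 0.720% to 0.919% on P3, with no overlap. Without the 2 co-varying pairs the medians were 0.871% on P2, 0.816% on P1 and 0.804% on P3, and the ranges overlapped. Without the pairs the shares at conc 1, where the members were chosen to be above solvent, were 2.35% to 2.67% in dip, 2.37% to 3.73% in met and 1.86% to 3.24% in col, against 0.647% to 0.952% in solvent wells of either batch; that they lie apart follows from the rule.

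In the other 16 chemicals, at their highest usable concentration against their own lowest ones, 0 members rose and 0 fell in 915 tests of a member in a chemical; over all IDs, 0.112% of 51771 such tests were called raised and 0.0348% lowered. At an unadjusted p below 0.05, 58 of the 915 (6.34%) were higher and 16 (1.75%) lower, against 3.17% and 2.66% of all tests. DESeq2 called 1 of the 915 raised and 1 lowered, beside 76 raised and 24 lowered of the 51771 tests over all IDs. With the replicate block 17 tests were called raised and 3 lowered, against 0.554% and 0.379% of all tests. These 17 involve 10 members in 7 chemicals, and 8 of them are the pair of ranks 71 and 84, in 5 chemicals. The log2 fold changes of the 17 ran between 0.56 and 1.89, and 6 of them were in smet at conc 2, 3 in dca at conc 1 and 3 in diz at conc 1. Of the 3 lowered, 2 are the pair of ranks 7 and 20, in cat. The same pair also makes up 2 of the 17 raised.

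Over all 100 members, smet at conc 2 had the highest median of these 16, 0.41 against -0.08 for the eligible IDs, with 74 members above 0 and 14 at least 2-fold higher, against 44.4% and 4.29% of the eligible IDs. Its wells had member shares of 1.297%, 1.38% and 0.975%, against 0.603% to 1.10% at its conc 6 to 8, and the ranges overlapped. On each plate by itself the well at conc 2 lay above those at conc 6 to 8, namely 1.297% against at most 1.10% on P4, 1.38% against at most 0.857% on P5, and 0.975% against at most 0.796% on P6. For dca at conc 1 the median was 0.25 against 0.05, with 74 members above 0 against 55.7% of the eligible IDs. For the other 14 chemicals the median lay between -0.18 and 0.19, the lowest being that of thx.

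**Figure D4:**
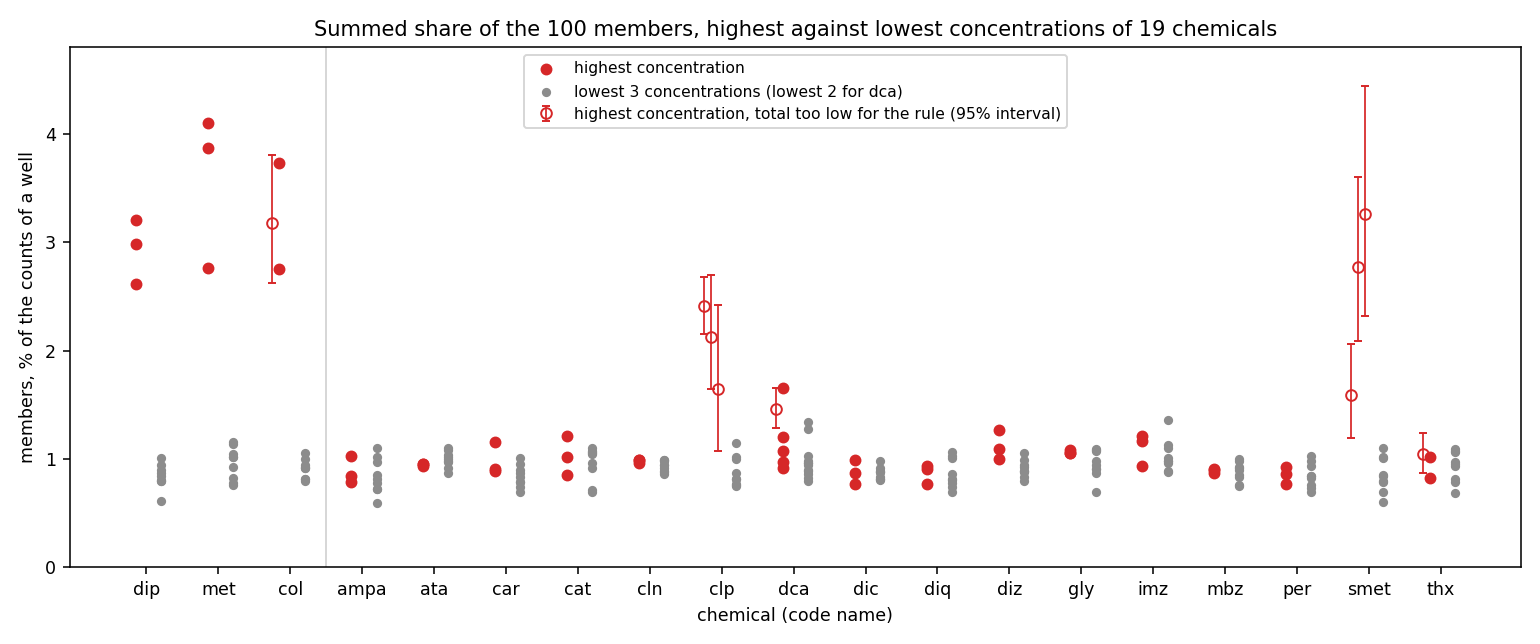
Share of a well's counts taken by the 100 members (y axis, percent) at the highest concentration (red) and at the lowest 3 concentrations (grey, lowest 2 for dca) of 19 chemicals (x axis, code names); each point is a well, and open points with exact 95% intervals are wells with too low a total for the rule. To the right of the line, the wells of clp and smet run between 1.59% and 3.26%, with 1 dca well at 1.66%.

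Wells left out by the rule give a view of the members that had no part in their choice. The 4 col wells of replicate 2 had member shares of 3.32% at conc 4, 2.99% at conc 3, 3.60% at conc 2 and 3.18% at conc 1, at totals of 5764 to 15710 counts. Summed over the 4, 706 of 21501 counts fell on members, a share of 3.28% with an exact 95% binomial interval of 3.05% to 3.53%, which covers counting error only. The col wells of the same plate at conc 5 to 8 had 0.912% to 1.09%, and the solvent wells of that plate at most 1.38%. With 5 CPM added, 79 members were higher in these 4 wells than at conc 6 to 8 of the plate, against 33.5% of the eligible IDs, and the medians were 1.44 and -1.29 on the log2 scale.

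The wells of clp and smet at conc 1 were all left out for low totals, and their member shares were above those of solvent. The solvent wells were used by the rule, so that difference is in part set by the choice of members. The clp wells had 2.41%, 2.12% and 1.65%, or 414 of 18033 counts and 2.30% in all (exact 95% interval 2.08% to 2.53%), against 0.754% to 1.15% at conc 6 to 8 of clp and at most 0.946% in solvent wells. The smet wells had 1.59%, 2.77% and 3.26%, or 146 of 6515 counts and 2.24% in all (1.90% to 2.63%), against 0.603% to 1.10% at conc 6 to 8 of smet. In clp 75 members were higher at conc 1 than at conc 6 to 8 from summed counts, against 29.8% of the eligible IDs. The medians of members and eligible IDs in clp were 0.98 and -2.40 on the log2 scale. In smet 49 were higher, against 23.8%, at a depth where 51 of the 100 had a count at all. The medians in smet were -0.64 and -2.77, so the median member was lower than at conc 6 to 8.

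A test with all wells kept, added after the data were seen, called 4 of 57 tested members raised in clp at conc 1 and 0 lowered, beside 1.90% of 3210 IDs called raised. ENSOMYG00000003664 was 1 of the 4, with a log2 fold change of 2.11 ± 0.76 and an edgeR adjusted p of 0.032. With the filter on the mean count 1 of 100 members was called raised and 1 lowered. In smet 0 of 25 tested members were called in either direction by edgeR, beside 0.358% of 1398 IDs called raised, and 2 were higher at an unadjusted p below 0.05. With the filter on the mean count, 0 of 91 members were called raised in smet and 2 lowered, and 0 were higher at an unadjusted p below 0.05. For the fits of clp and smet with that filter, and for the unadjusted p, the share over all IDs is not given here. Whether those counts differ from all IDs was not tested.

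Other wells with low totals had member shares nearer to those of solvent. In 20 wells of chemicals other than dip, met, col, clp and smet whose total was under 40% of the median of the other wells of their library, member shares were 0.709% to 1.46%, and 2 lay above the highest solvent well of their batch. Those of the 20 that the rule left out were a thx well at 16.7% of that median, a dca well at 21.0% and a dic well at 2.20%. The left-out wells of col, and of clp and smet at conc 1, had 0.712% to 16.3%. The depths differ, and the part of depth was not tested. The 3 wells of thx at conc 1 had 0.828%, 1.02% and 1.04%. In count, the members of a dip well at conc 1 gave 235% to 503% of the median of the other wells of its library, at a total of 67.3% to 113%. For met at conc 1 the members gave 77.03% to 200% at a total of 24.3% to 38.4%. For the kept col wells at conc 1 to 4 they gave 57.4% to 148% at a total of 23.4% to 61.3%. The wells at conc 1 are those the rule used, so these values describe the choice; the col wells at conc 2 to 4 are not. Fewer cells in a well and less RNA per cell cannot be told apart in these data.

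**Figure D5:**
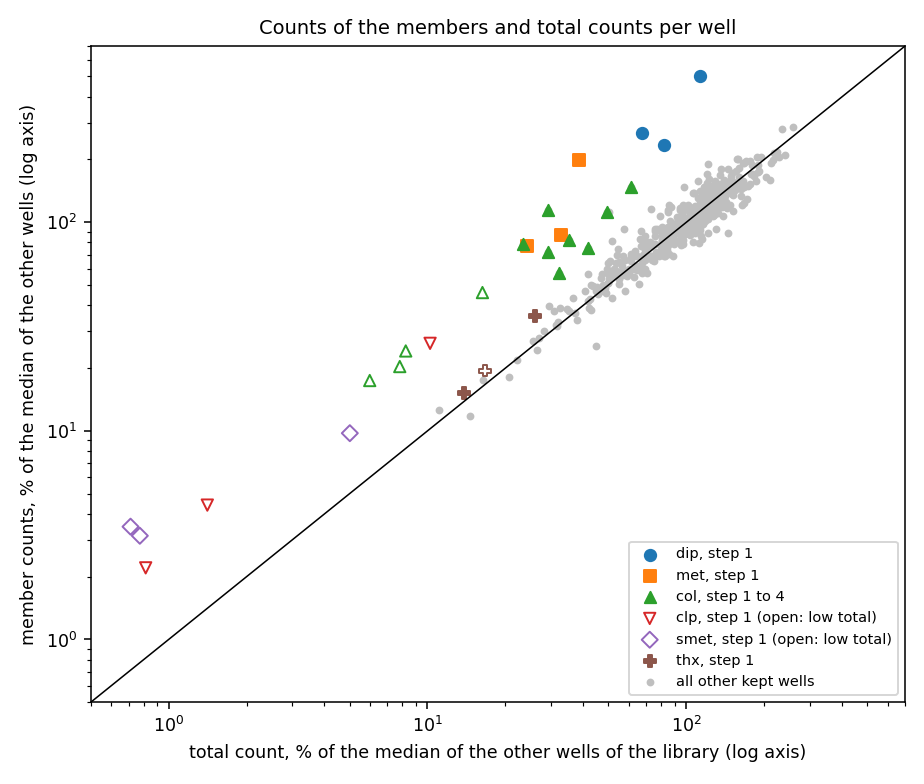
Counts of the 100 members (y axis) against the total count (x axis) of each well, both in percent of the median of the other wells of its library on log axes; coloured points are the wells at conc 1 of dip, met, clp, smet and thx and at conc 1 to 4 of col, open ones with too low a total for the rule, grey points are the other kept wells, and the line marks equal percentages. The dip, met, col, clp and smet wells lie above the line, dip with 235% to 503% of the member counts of other wells, and the thx wells near it.

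Plate rows coincide with concentration for the pesticides, with conc 1 in row H and conc 8 in row A. Rows were compared in 12 of the other chemicals, without clp, smet, thx and dca, which have another layout or low totals. Member shares were a median of 0.076 percentage points higher in row H than in the middle rows of the same chemical and plate (29 of 36). In row A they were 0.049 percentage points higher (27 of 36). The 12 include diz, whose wells at conc 1 had 1.27%, 1.10% and 0.995%. In row H a response to the chemical cannot be told apart from the row. The part of the row in the small differences at the highest concentration was not tested.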

How the data were processed

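RNA of single RTgill-W1 wells was sequenced with a QIAseq UPXome kit, in which each well carries its own code, per the labels' protocols. The authors deposited raw counts for each well and Ensembl ID, to judge by the whole values; which aligner, counter and annotation were used is not given in the sources used here. Reads of near-identical genes may be split between them. Solvent wells are repeated in every table: 381 columns were repeats and 0 differed. In 863 comparisons of 2 wells of the same group, chi-square divided by its degrees of freedom was at least 1.66, more than sampling noise gives. A further 24 wells of 1 chemical were not analysed here.

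The members, the lists and the tests were chosen with earlier results of these data known. The rule left out wells under 10% of the median total (14 of 501) and the 4 most counted IDs; kept wells had 24620 to 786151 counts, with a median of 247044. Where the reference gives no names, the rule for named IDs takes the member with the largest minimum and that with the largest mean log2 fold change at conc 2. The gene lists and markers planned for named IDs could not be used, since 0 of 44260 IDs matched.

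Tests used edgeR 4.0.16 (TMM, filterByExpr, quasi-likelihood, two-sided, Benjamini-Hochberg FDR below 0.05 over all IDs tested) in R 4.3.3 within each chemical, conc 2 to 8 for dip, met and col, all IDs counted in the library size, and batch as a term for dca. For clp and smet the highest usable concentration is conc 2. The tests were also run on simulated counts, drawn independently for each well with the same spread for every gene and no plate effect. Only well-counted genes were changed there. That setting does not cover members with few counts or wells that vary together within a plate. Alternatives were DESeq2 1.42.0, other filters, solvent or conc 5 to 8 as reference, all wells kept, removed IDs, thinned wells and left-out replicates. A replicate number marks a cell passage per the design text, so it pairs wells; plates were inferred from library and replicate numbers; deviations from group means correlated by a median of 0.09, 0.18 and 0.09 within a plate for dip, met and col, against -0.04, -0.08 and -0.05 between plates. The fit with this replicate block is printed where it moved a count. P-values of the fits without the block measure the spread of wells of a concentration in 1 cell line, where passage, plate and library coincide. Those fits take the wells of a plate as independent, although they correlate as given above. With the block, mean differences between plates are removed, and p-values measure the spread that is left. Intervals are exact binomial ones (scipy 1.17.1) and cover counting error. Tables and figures used Python 3.11.15, pandas 2.3.3 and matplotlib 3.10.9.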

Additional observations from a re-analysis of the deposited data

Results flagged for a closer look

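Among the 380 kept wells of the other 16 chemicals, 64 had a member share above the highest solvent well of their batch. Intervals were not considered there. All but the dca wells of plate P2 at conc 3 and conc 2 were in the second batch, most of them on plate P4. They include wells at the lowest concentrations of several chemicals, so the count does not by itself show a response. The part of the plate was not tested. Of the 14 wells left out for low totals, 10 had a member share whose exact 95% interval lay above the highest solvent well of their batch. They are the 4 col wells of replicate 2, at 3.32% (2.96% to 3.71%) for conc 4, 2.99% (2.51% to 3.53%) for conc 3, 3.60% (3.07% to 4.20%) for conc 2 and 3.18% (2.63% to 3.80%) for conc 1, against at most 1.38% in solvent wells. The others are the 3 clp wells at conc 1, at 2.41% (2.16% to 2.68%), 2.12% (1.64% to 2.70%) and 1.65% (1.07% to 2.43%), and the 3 smet wells at conc 1, at 1.59% (1.19% to 2.06%), 2.77% (2.09% to 3.60%) and 3.26% (2.32% to 4.45%), against at most 0.946% in solvent wells. Their totals are 0.712% to 16.3% of the median of the other wells of their library. The part of depth in these shares was not tested. The rule used the solvent wells and chose members that were low there, so a share above solvent is in part set by the choice. The lowest 3 concentrations of each chemical were not used by the rule. The highest well there had 1.05% in col, 1.15% in clp and 1.10% in smet. The interval of the clp well at 1.65% reached below the value of clp. The other intervals lay above the value of their chemical.

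In dca, 1 well lay far from the other 5 at 3 of 5 concentrations, each time the well of plate P2: 1.34% at conc 4 (next 0.965%), 1.38% at conc 3 (next 0.986%) and 1.60% at conc 2 (next 1.07%). The flag is a Dixon ratio, the gap to the next well divided by the range of the 6 wells, which come from 6 plates. Solvent wells of P2 also had high shares, 1.02% to 1.38%. The 3 flags share that plate and are not independent, so no rate of chance flags is given for them. Without the 2 co-varying pairs those wells had 1.03%, 0.889% and 0.969%, against 0.747% to 0.863%, 0.770% to 0.911% and 0.740% to 1.03% in the other 5.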

How the results depend on the processing

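Of 200 comparisons of a count or median with its value under another setting, 168 stayed within 1.5 times the count or within the spread of the replicates. The 168 include counts of members in dip and met that were 0 under both settings. They also include fits of dip and met with all wells kept, which are the same fits because no well of either was left out. The tally is therefore not a measure of how stable the results are. The rule chose 95 of the 100 again with pseudocount 1, 90 with pseudocount 20, 96 with all wells kept, 86 with mean CPM per well and 86 with TMM scaling, but 53 with the 4 most counted IDs kept, and 56 to 81 without 1 replicate of dip, met and col. In col, thinning all wells to the lowest total gave 17 raised members of 17 tested at each of conc 4, 3 and 2. The low-count filter can pass a gene through the group where it is high. The 17 of 17 therefore cannot speak for the other members, and the share over all IDs is not given for this fit. The fit with no low-count filter gave 11, 10 and 9 of 100. Leaving out a replicate gave 14 to 37 raised members at conc 4, 23 to 36 at conc 3 and 17 to 35 at conc 2. The lower ends of these ranges come from fits without replicate 1 or replicate 3. Those fits leave 1 col well at each step, so no conclusion is drawn from their counts. The upper ends come from leaving out replicate 2, which had no kept well at these steps. The share over all IDs is not given for these fits. The replicate block gave 2 at dip conc 2, 5 at met conc 2, and 17 raised and 3 lowered in the 16 other chemicals. The replicate block changed no other call by over 1.5 times. No filter gave 1 raised of 100 at dip conc 4, where the share over all IDs is not given. In the 16 other chemicals DESeq2 gave 1 raised and 1 lowered, no filter 2 and 1, and solvent as reference 6 and 1. All wells kept or thinned wells gave 1 raised each. The rule used the solvent wells and chose members that were low there. The 6 raised with solvent as reference are therefore in part set by the choice. Apart from DESeq2, the share over all IDs is not given here for these fits, and no conclusion is drawn from the counts. The median log2 difference at met conc 2 was 0.27 with pseudocount 20, 0.22 with the 4 IDs kept and 0.26 to 0.38 without 1 replicate. In col with the 4 IDs kept it was 0.70, 0.65 and 0.52 at conc 4, 3 and 2, with pseudocount 20 it was 1.15 at conc 4, and without 1 replicate it was 1.11 to 1.48 at conc 2. The filter on the mean count gave 1 raised at clp conc 1. Without replicate 2, ENSOMYG00000004269 was lower at conc 2, by a log2 fold change of -0.78 in dip (range over replicates -0.78 to 1.91) and -0.76 in met (-0.76 to 0.76), where it was not called with all replicates either; its calls at dip conc 3 and at col conc 4 and 3 held in all settings run. The cause of these differences was not tested, apart from the lower number of members that thinning lets through. Depth limits single members: their median count per solvent well was 4.5 in the first batch and 6 in the second.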
